A study of Mus musculus with 2 samples.

Results

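The genes described here make serine, one-carbon units and nucleotides, and were taken from microarrays of regulatory T cells with and without Hopx. The list named 36 genes, and every probe set whose only platform gene symbol was one of them was used. This gave 79 probe sets for 34 genes, of 18193 genes measured by the arrays. No probe set carried Mat2a or Impdh2 as its only symbol, so these 2 genes have no value here. The members were divided by their place in metabolism into serine and one-carbon genes (8 measured), methionine cycle genes (3), purine genes (13), pyrimidine genes (6), nucleoside diphosphate kinases (2), and aspartate and asparagine genes (2).

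The data compared Hopx-/- with Hopx-sufficient mouse T cells of the induced regulatory type (iTregs), which dendritic cells had induced in immunized mice. Hopx encodes a short homeodomain protein that acts on transcription without binding DNA. Cells positive for both CD25 and Foxp3 were sorted, and total RNA of each genotype was hybridised to 1 array, 2 arrays in all. The strain, age and number of animals, the immunogen and the deleted part of Hopx are not given in the sources used here. All differences below are Hopx-/- minus Hopx-sufficient on the log2 scale, averaged over the probe sets of a gene. Since each genotype had 1 array, the differences carry no replicate error and no test was possible. Each value describes these 2 arrays, and the only spread is that between probe sets of a gene.

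Proliferating T cells draw on these pathways to copy their genomes and transcribe RNA. Serine, taken up or made from a glycolytic intermediate by Phgdh, Psat1 and Psph, gives up a carbon to tetrahydrofolate through the serine hydroxymethyltransferases. The folate-bound carbon then enters the purine ring and thymidylate, and it also remethylates homocysteine to methionine. Purines are assembled on ribose phosphate to IMP, from which the AMP and GMP branches depart, while the pyrimidine ring is built from aspartate and carbamoyl phosphate before it joins the ribose. The transcription factors MYC and ATF4 are known activators of many of these genes.

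Reference sequence is shown for members that were lower, since all but 2 members lay on that side. The sequences are RefSeq sequences of build GRCm38.p6, printed 5' to 3' on the strand of the gene. For Shmt2, the member with the lowest value, the 250 bases before the gene start are given with a match to the NRF1 core CGCATGCG in capitals. For Ppat, a member close to Hopx, capitals mark the GC box GGGCGG.
Shmt2 (chr10:127522445-127522694, minus strand): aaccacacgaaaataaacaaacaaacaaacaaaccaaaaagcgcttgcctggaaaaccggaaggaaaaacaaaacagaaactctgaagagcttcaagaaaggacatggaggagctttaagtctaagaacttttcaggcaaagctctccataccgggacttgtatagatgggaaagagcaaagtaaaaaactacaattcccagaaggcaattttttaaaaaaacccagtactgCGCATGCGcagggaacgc
Ppat (chr5:76951579-76951828, minus strand): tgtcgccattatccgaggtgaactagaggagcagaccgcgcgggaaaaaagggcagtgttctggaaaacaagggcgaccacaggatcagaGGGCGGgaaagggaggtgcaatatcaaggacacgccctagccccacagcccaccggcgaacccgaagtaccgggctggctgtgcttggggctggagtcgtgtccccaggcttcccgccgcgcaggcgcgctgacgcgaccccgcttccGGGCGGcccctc

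The other stretches, of 30 bases each, show where members hold a motif of factors known to act on growth and amino acid genes. Capitals mark NRF1 in Ctps, the E-box CACGTG (the MYC-MAX motif) in Paics, Atic and Nme1, and TGATGNAA, the ATF4-C/EBP element, in Prps1, Asns and Got1; the Got1 match lies on the opposite strand.
Ctps (chr4:120570322-120570351, minus strand): gagacgtcccgCGCATGCGcgccctagccc
Paics (chr5:76951087-76951116, plus strand): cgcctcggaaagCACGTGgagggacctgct
Atic (chr1:71557137-71557166, plus strand): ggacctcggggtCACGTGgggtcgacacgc
Nme1 (chr11:93968273-93968302, minus strand): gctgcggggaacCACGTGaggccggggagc
Prps1 (chrX:140456422-140456451, plus strand): ggctatctttgTGATGTAAaaagtgcttta
Asns (chr6:7693214-7693243, minus strand): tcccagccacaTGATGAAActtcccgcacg
Got1 (chr19:43524689-43524718, minus strand): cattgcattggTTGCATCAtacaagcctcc

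Promoter windows of 300 bases, 250 before and 50 after the start, were found for 34 of the 36 listed genes, not for Pfas and Dhodh. These 34 are not the 34 measured members, since they include Mat2a and Impdh2, which have no value. Impdh2 is among the E-box holders counted below, and both genes are among the holders of the GC box and of CCAAT. A gene was counted when any of its windows held a motif on either strand. The E-box was held by 4 of 34 members (11.8%), against 10.2% of the 14452 measured genes with a window and 8.09% of all 27025 genes with one. The ATF4-C/EBP element was held by 3 members (8.82%), against 3.24% of measured genes and 4.51% of all genes. NRF1 was held by 2 (5.88%), against 3.27% and 2.07%. The GC box GGGCGG was held by 26 members (76.5%), against 57.3% and 38.2%, and CCAAT by 18 (52.9%), against 42.0% and 41.1%. The CRE TGACGTCA was held by Umps alone (2.94%), against 2.92% and 2.03%, and the E2F motif TTTCGCGC by none, against 0.574% and 0.374%. None of the 7 motifs contains another. A match is only a description of the letters.

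The file holds values centred for each probe set, so the Hopx-sufficient value is the mirror image of the Hopx-/- value. Shmt2, the mitochondrial serine hydroxymethyltransferase gene, averaged -0.43 on the Hopx-/- array and 0.43 on the Hopx-sufficient array over its 4 probe sets. The difference was -0.87, or 1.82-fold lower, with the 4 probe sets at -1.19, -0.84, -0.80 and -0.64. All 4 were thus at least 1.5-fold lower, and 40 of the 18193 genes had a lower value. The probe sets at -1.19, -0.80 and -0.64 carry a suffix that marks possible cross-hybridisation, whereas that at -0.84 carries none.

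Of the 34 members 32 (94.1%) were lower in Hopx-/- cells, against 47.36% of all genes. The median over members was -0.42, that is 1.34-fold lower, against 0.01 over all genes. At most 0.8 times their Hopx-sufficient value were 22 members (64.7%), against 6.612% of all genes, and none was as far on the higher side, against 4.364%. At least 1.5-fold lower, a log2 difference of 0.585 in size, were 6 members (17.6%), namely Shmt2, Mthfd1, Shmt1, Pfas, Mtap and Ctps; the share over all genes was 1.253%. That count was 14 when the probe set furthest from 0 was taken for each gene, and 18 if the values, whose log base is not stated, are natural logs. The share over all genes was not computed under either of these settings, so 1.253% is no background for those counts. No member was 1.5-fold higher (0.3133% of all genes). With base 2 none reached 2-fold in either direction, whereas with natural logs Shmt2, Mthfd1, Shmt1 and Pfas would be more than 2-fold lower. Closest to the 1.5-fold line were Ctps, 1.53-fold lower, and, on the other side, Mthfd2 at 1.49-fold lower. Members within a pathway are not independent replicates of the genotype. The members were also chosen with earlier results of these data known, so these shares are a description only.

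**Figure D1:**
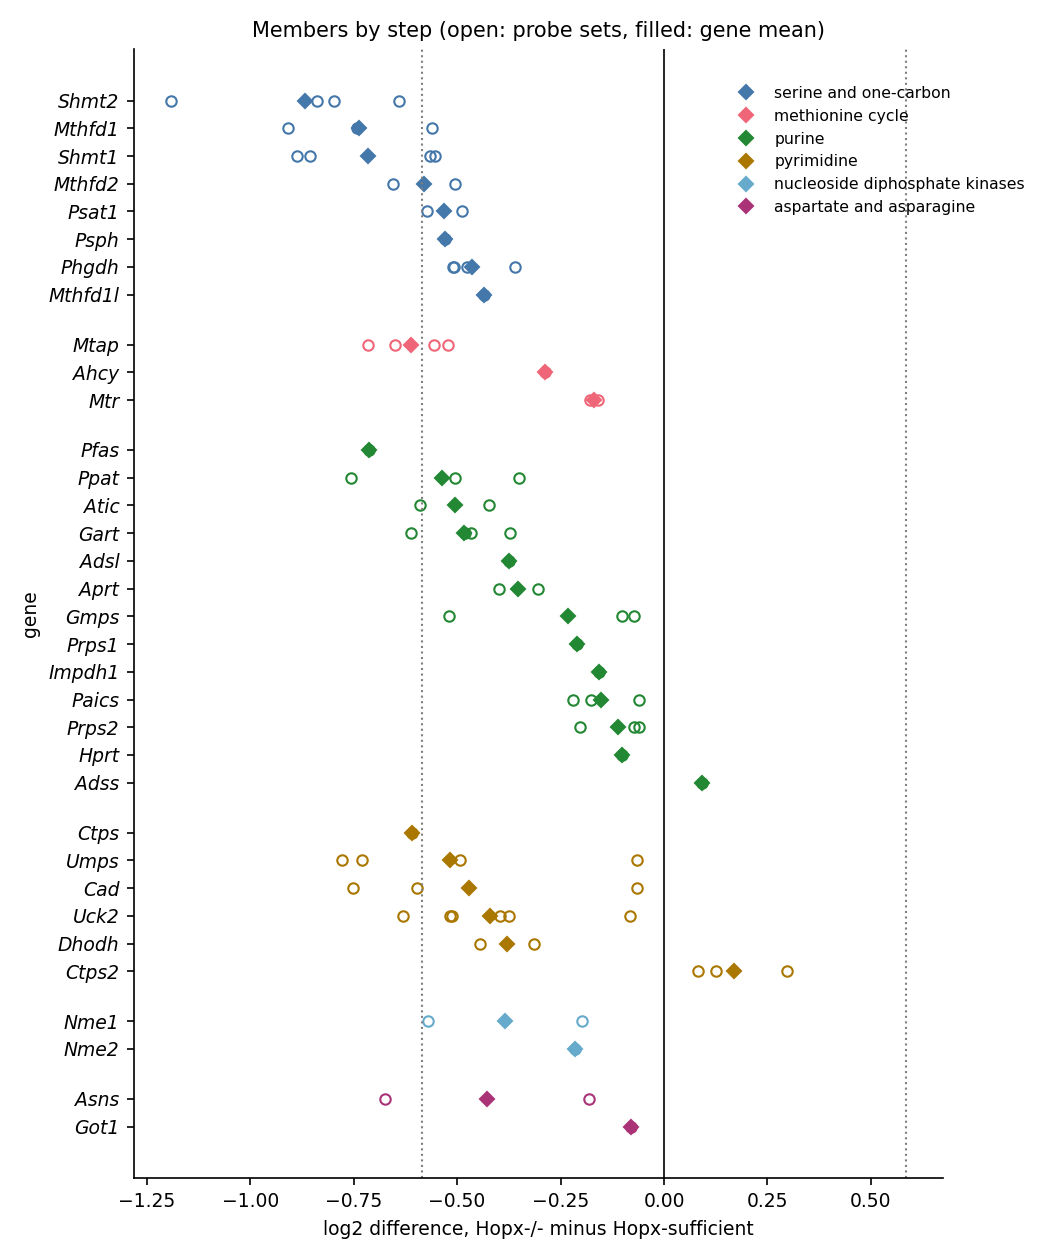
Log2 difference (Hopx-/- minus Hopx-sufficient) of each measured member, by metabolic step; open circles are probe sets, filled diamonds are gene means and dotted lines mark 1.5-fold. All 8 serine and one-carbon genes lie at or below -0.43, and Adss and Ctps2 are the members above 0.

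The probe sets of a gene gave the check on single values that the design allows. Of the 79 member probe sets 75 (94.9%) were lower and 22 (27.8%) were at least 1.5-fold lower, against 47.4% and 1.53% of all 34945 probe sets with 1 symbol. In 21 of the 22 members with several probe sets all of them were lower, the exception being Ctps2, whereas 22.3% of the 9010 genes with several probe sets had all of them lower. The pooled standard deviation within a gene was 0.19 over these 22 members and 0.18 over the 9010 genes. The other 12 members rest on 1 probe set each.

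The plot of cumulative shares sets the members beside all genes. It shows a displacement along the whole range rather than a few extreme members.

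**Figure D2:**
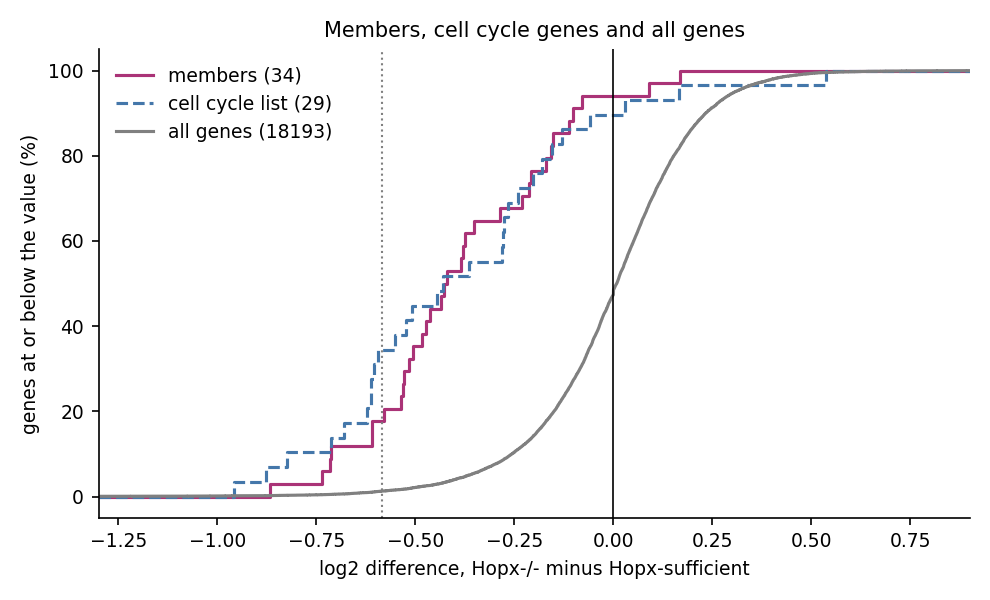
Share of genes (%) at or below each log2 difference for 34 members, 29 cell cycle genes and 18193 genes; the dotted line marks 1.5-fold lower. The members and the cell cycle genes have medians of -0.42 and -0.43, while all genes have a median of 0.01.

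Serine and one-carbon genes had the lowest median of the 6 divisions, at -0.56, and 8 of 8 were at most 0.8 times their Hopx-sufficient value. The cytosolic genes were Mthfd1, the trifunctional enzyme that interconverts folate one-carbon forms, and Shmt1. Mthfd1 averaged -0.37 on the Hopx-/- array and 0.37 on the Hopx-sufficient array, a difference of -0.74 (1.67-fold lower), with 3 probe sets between -0.91 and -0.56. Shmt1 averaged -0.36 on the Hopx-/- array and 0.36 on the Hopx-sufficient array, a difference of -0.72 (1.64-fold lower), with 4 probe sets between -0.89 and -0.55. No probe set of either gene came near 0.

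In the mitochondrial branch, Shmt2 was followed by Mthfd2, the dehydrogenase and cyclohydrolase of proliferating cells. It differed by -0.58 (1.49-fold lower), and its probe sets stood at -0.65 and -0.51. Mthfd1l, whose product releases formate for export to the cytosol, differed by -0.43 (1.35-fold lower, 1 probe set). Both compartments were therefore lower on the Hopx-/- array.

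The 3 genes of serine synthesis lay close together. Psat1, the phosphoserine aminotransferase, differed by -0.53 (probe sets at -0.57 and -0.49), and Psph, the phosphatase of the last step, by -0.53 (1 probe set). Phgdh, the dehydrogenase that opens the route, differed by -0.46, with 4 probe sets between -0.51 and -0.36. All 4 probe sets of Phgdh carry a suffix that marks possible cross-hybridisation, and those of Psat1 carry suffixes of shared transcripts or sequences.

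Among methionine cycle genes, Mtap, which recycles methylthioadenosine from polyamine synthesis, stood lowest. It averaged -0.31 on the Hopx-/- array and 0.31 on the Hopx-sufficient array, a difference of -0.61 (1.53-fold lower), with 4 probe sets between -0.71 and -0.52. Ahcy, which clears S-adenosylhomocysteine, differed by -0.29, and Mtr, the methionine synthase that uses methyl-folate, by -0.17, with probe sets at -0.18 and -0.16. The median of the 3 was -0.29.

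Purine genes differed by their place in the pathway. Over all 13 the median was -0.23, with 12 lower and 6 at or below that ratio of 0.8. The 6 genes of the route to IMP had a median of -0.49, and 5 of them were at or below a ratio of 0.8. The 7 genes of ribose activation, the branches after IMP and salvage had a median of -0.16, and Aprt alone was at or below it. This division was made after the values were seen.

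On the route to IMP, Pfas, which makes formylglycinamidine ribonucleotide, was lowest at -0.71 (1.64-fold lower, 1 probe set). Its values were -0.36 on the Hopx-/- array and 0.36 on the Hopx-sufficient array. Ppat, the amidotransferase of the committed step, differed by -0.54, with probe sets at -0.76, -0.51 and -0.35. Atic, the bifunctional enzyme of the last steps, which spends a formyl-folate, differed by -0.51, with probe sets at -0.59 and -0.42. Gart, a trifunctional enzyme that also uses formyl-folate, differed by -0.48, with 4 probe sets between -0.61 and -0.37. Adsl, a lyase that serves both this route and the AMP branch, differed by -0.38. Paics, which joins carbon dioxide and aspartate to the ring, differed by only -0.15, with probe sets between -0.22 and -0.06.

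After IMP, Gmps, the GMP synthetase, differed by -0.23, but its 3 probe sets spread from -0.52 to -0.07. Impdh1, the dehydrogenase that opens the GMP branch, differed by -0.16. Adss, which opens the AMP branch, was slightly higher at 0.09. The ribose-phosphate activators Prps1 and Prps2 differed by -0.21 and -0.11. Of the salvage enzymes, Aprt, which recovers adenine, differed by -0.35 (probe sets at -0.40 and -0.30), and Hprt, which recovers hypoxanthine and guanine, by -0.10.

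Pyrimidine genes had a median of -0.45, and 5 of 6 were at or below a ratio of 0.8. Ctps, a CTP synthase known from human patients to serve proliferating lymphocytes, had -0.31 on the Hopx-/- array and 0.31 on the Hopx-sufficient array in its 1 probe set, a difference of -0.61 (1.53-fold lower). Its relative Ctps2 averaged 0.08 on the Hopx-/- array and -0.08 on the Hopx-sufficient array, a difference of 0.17 (1.12-fold higher), with all 3 probe sets above 0, between 0.08 and 0.30. These 2 genes were the members furthest apart among related pairs.

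In the synthesis of UMP, Umps, the bifunctional enzyme of the last steps, differed by -0.52, Cad, the trifunctional enzyme that starts the ring, by -0.47, and Dhodh, the mitochondrial dehydrogenase between them, by -0.38. The probe sets of Umps stood at -0.78, -0.73, -0.49 and -0.06, and those of Cad at -0.75, -0.60 and -0.07. The probe sets near 0 in both genes, and that of Ppat at -0.35, had the finest steps between possible values, which places an uncentred value behind each of them below 4 on the scale of the file. Without these 3 probe sets Cad differed by -0.68, Umps by -0.67 and Ppat by -0.63. Uck2, which salvages uridine and cytidine, differed by -0.42, with 6 probe sets between -0.63 and -0.08.

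Nme1 and Nme2, which phosphorylate nucleoside diphosphates of all bases, differed by -0.38 and -0.21. The probe sets of Nme1 stood at -0.57 and -0.20, and all probe sets of this pair carry suffixes of shared transcripts or sequences. Asns, the asparagine synthetase and an ATF4 target, differed by -0.43, but its probe sets stood at -0.67 and -0.18, and the lower one may cross-hybridise by its suffix. Got1, the cytosolic transaminase that makes aspartate, differed by -0.08.

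Related genes were set side by side in 9 pairs in which both were measured, 5 of which were further apart than the pooled standard deviation within a gene (0.18). After Ctps and Ctps2, with a difference of -0.78 between them, came Uck2 against Uck1 (-0.42 and -0.04), Mthfd2 against Mthfd2l (-0.58 and -0.23) and Mthfd1 against Mthfd1l (-0.74 and -0.43). Adss and the muscle-type Adssl1 differed by 0.09 and 0.29. Shmt1 and Shmt2, Prps1 and Prps2, Nme1 and Nme2, and Got1 and Got2 lay closer than that. Whether the gaps exceed the spread between animals was not testable.

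**Figure D3:**
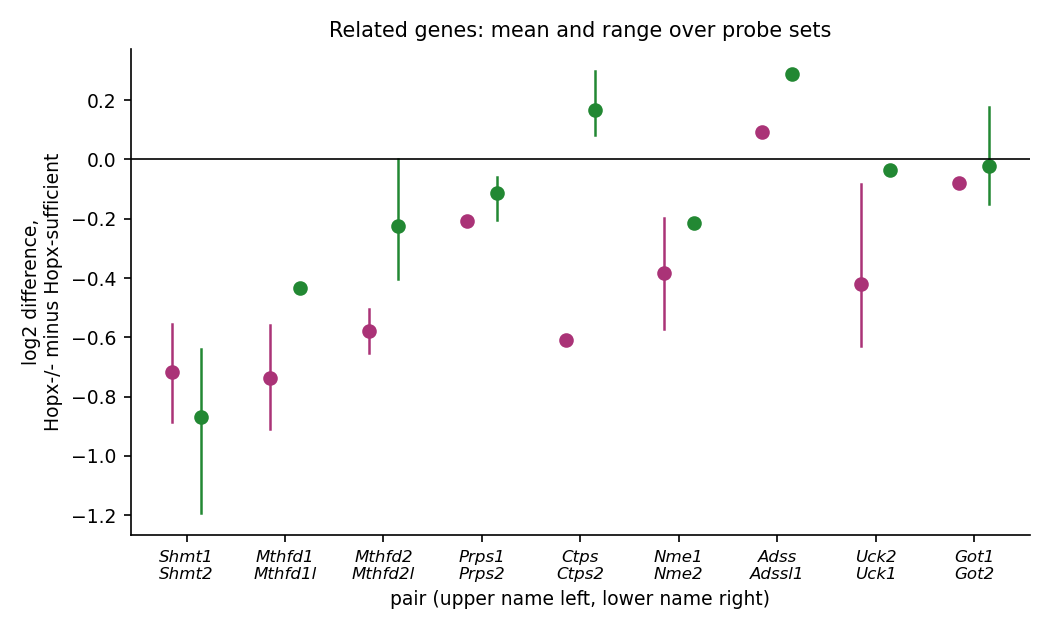
Log2 difference (Hopx-/- minus Hopx-sufficient) of 9 pairs of related genes; points are gene means and lines span the lowest to the highest probe set. Ctps lies at -0.61 while all probe sets of Ctps2 lie above 0.

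Ppat and Paics are head-to-head neighbours on chromosome 5, with overlapping gene spans, and 3 protein-coding genes lie between Paics and Hopx. The printed E-box stretch of Paics falls within the span of Ppat. Hopx itself was lower by both probe sets, at -4.86 and -5.43. Of 10 protein-coding genes on each side of Hopx 18 were measured, with a median of -0.01 and a range from -0.54 (Ppat) to 0.28 (Nmu). Without Ppat and Paics the median of the other 16 was 0.01, with 8 lower and 8 higher. Srp72, next to Paics on the side of Hopx, differed by 0.15, and Aasdh, on the far side of Ppat, by -0.19. Without Ppat and Paics, 30 of 32 members were still lower, and the median of the members was -0.42.

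**Figure D4:**
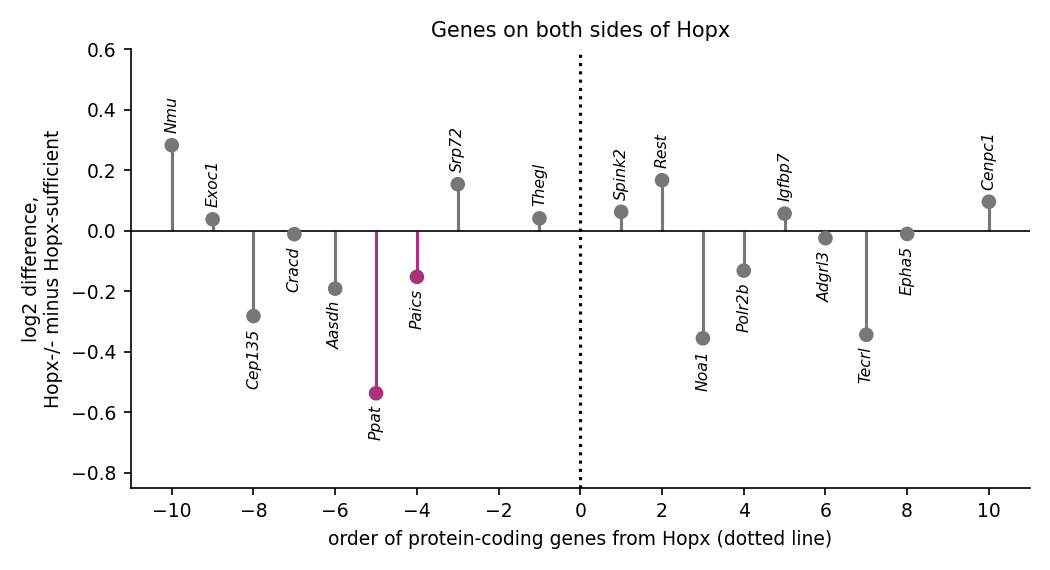
Log2 difference (Hopx-/- minus Hopx-sufficient) of the measured genes among 10 protein-coding genes on each side of Hopx, in chromosomal order; the dotted line marks the place of Hopx, whose own value is off the scale. Ppat has the lowest value (-0.54) and Paics (-0.15) lies among the other neighbours.

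Other genes of the same pathways, from lists beside the members, gave medians closer to 0. Their counts of lower genes stand against 47.36% of all genes. Of 15 measured genes of folate handling 8 were lower, with a median of -0.07. Gcsh, the carrier protein of the glycine cleavage system, differed by -0.61, Slc19a1, the reduced folate carrier, by -0.45 (3 probe sets between -0.57 and -0.35), and Slc25a32, the mitochondrial folate carrier, by -0.36. Tyms, the thymidylate synthase, differed by -0.20 with probe sets from -0.58 to 0.25. Of 14 further methionine genes 5 were lower (median 0.06). Enoph1, of methionine salvage, differed by -0.51 and Mat2b, a regulatory subunit of S-adenosylmethionine synthesis, by 0.44, while Ahcyl2 differed by 0.27.

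Of 11 genes of deoxynucleotide supply 7 were lower, with a median of -0.29. Dut, which keeps uracil out of DNA, differed by -0.67 (1.59-fold lower), Rrm2, the S-phase subunit of ribonucleotide reductase, by -0.55 (3 probe sets between -0.63 and -0.50) and Dctd, the deoxycytidylate deaminase, by -0.51. The mitochondrial kinases Tk2 and Dguok were on the other side, at 0.42 and 0.27, as was Rrm2b, the reductase subunit used outside S phase, at 0.16. Of 29 genes of salvage and breakdown 17 were lower (median -0.07), with Nme6 at -0.71, Ada, the adenosine deaminase, at -0.53 and Nme4 at -0.42. Of 9 genes of the pentose phosphate pathway and of ribose phosphate activation 4 were lower (median 0.04). Their largest differences were in Pgd, of the pentose phosphate pathway (-0.26), and in Prps1l1 (0.18) and Prpsap2 (0.16), which belong with the ribose-phosphate activators.

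Of the regulators, Atf4 differed by -0.32 with 3 probe sets between -0.36 and -0.27. Of 17 genes in the list of Atf4 and its known targets 13 (76.5%) were lower, against 47.36% of all genes. The median of the 17 was -0.26, or -0.14 without probe sets that carry a suffix. Slc7a5, a carrier of large neutral amino acids, differed by -1.08 (2.11-fold lower, 1 probe set), Chac1 by -0.47 and Eif4ebp1 by -0.40, though the probe sets of Eif4ebp1 ran from -0.83 to 0.32. Ddit3, encoding CHOP, was higher at 0.34. Myc differed by -0.08 (1 probe set). Of the 9 genes of its network 3 were lower (median 0.11), with Mxd4, a MAX partner that opposes MYC, highest at 0.51, Mxd1 at -0.24 and Mxi1 at 0.16.

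**Figure D5:**
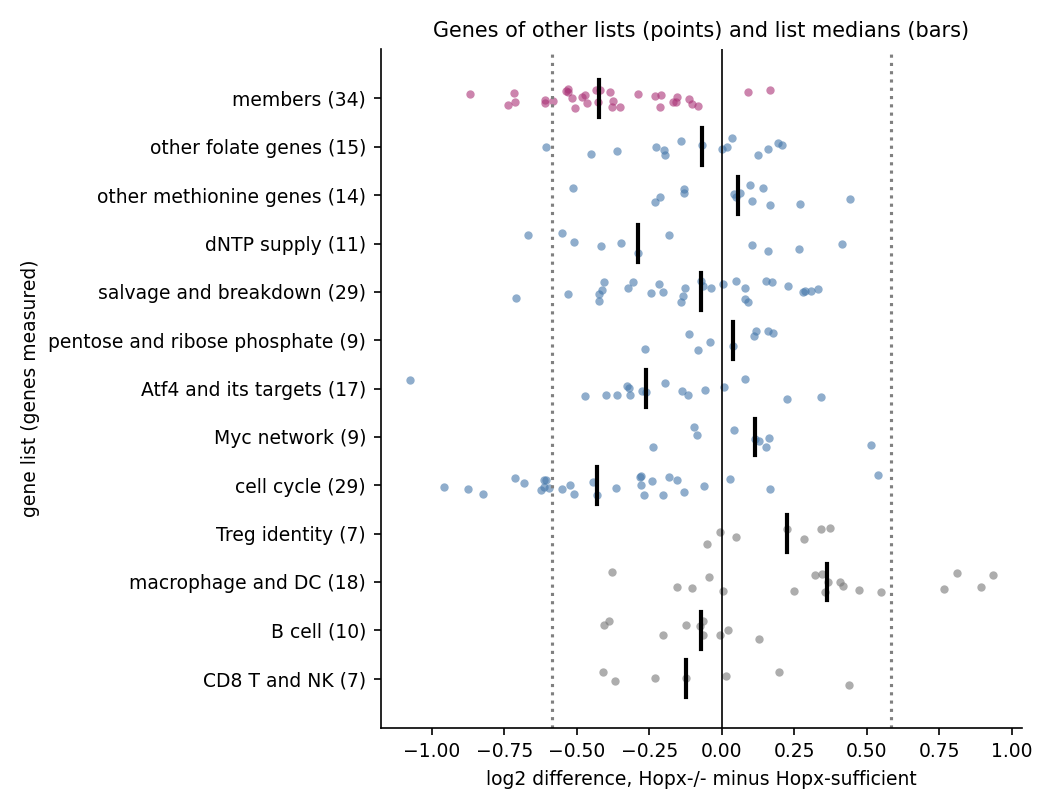
Log2 difference (Hopx-/- minus Hopx-sufficient) of the genes (points) of each list with its median (bar); the number of genes is in brackets and dotted lines mark 1.5-fold. The members and the cell cycle genes have the lowest medians, and the macrophage and dendritic cell markers the highest (0.36).

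Other gene lists differed between the arrays in both directions, and their part in the result was not tested. At least 1.5-fold lower were 10 of 29 measured cell cycle genes (34.5%), against 1.253% of all genes. Of the 29 genes 26 were lower (89.7%, against 47.36%), with a median of -0.43. The 17 genes of DNA replication and entry into S phase among them had a median of -0.61 and were all lower, led by Cdc6 at -0.96, Gins2 at -0.88 and Ccne1 at -0.82 and with E2f1, Tipin, Prim1, Mcm2, Rfc4, Ccne2 and Mcm3 between -0.71 and -0.59, whereas 8 mitotic genes had a median of -0.14. Of the mitotic genes Ccnb2 (0.54), Cdc20 (0.17) and Plk1 (0.03) were higher. The remaining 4 cell cycle genes, in neither class, were Cdk1 (-0.51), Top2a (-0.24), Ccna2 (-0.18) and Mki67 (-0.06). These classes were made after the values were seen. In a bulk array, fewer cycling cells and less RNA per cell cannot be told apart. Of 18 macrophage and dendritic cell markers 14 were higher (median 0.36, from -0.38 to 0.94), with Hmox1, Mrc1, Slc40a1 and Fcna at least 1.5-fold higher. The share of these markers that was lower was 22.2%, against 47.36% of all genes, and 0.3133% of all genes were at least 1.5-fold higher. Of the dendritic cell genes among these markers, Itgax stood at -0.10 and Flt3 at -0.04, by 1 probe set each. Zbtb46 averaged 0.0047 over 4 probe sets that ran from -0.22 to 0.35. The myeloid genes Lyz2 (-0.38) and Itgam (-0.15) were lower. Of 10 B cell markers 8 were lower (median -0.07, from -0.41 to 0.13), and of 7 CD8 T and NK cell markers 4 were lower (median -0.12, from -0.41 to 0.44). The shares lower were thus 80% and 57.1%, against 47.36% of all genes. Since the values hold no levels, it cannot be said which of these markers were detected at all, nor could the identity of the sorted cells be checked beyond differences. Among 7 T cell and Treg identity genes the median was 0.23, from -0.05 (Il2ra) to 0.37 (Ikzf2). Foxp3, at 0.28, and Il2ra were both used in the sort.

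Spike-in controls added at hybridization lay between -0.21 and 0.01 in their 18 probe sets (median -0.12). Their median was thus on the same side as that of the members. Within the spike-in range lay 8 members, and 24 (70.6%) lay below it, against 13.0% of all genes. The spike-ins carry no variation between animals, sorts, RNA preparations or labelling, so they set no error for the genotype. Between the 3' and 5' ends of control transcripts, as a measure of RNA quality, the differences were apart by -0.09 in Gapdh, by 0.00034 in beta-actin, by 0.53 in the transferrin receptor and by 0.19 in pyruvate carboxylase (3' minus 5').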

How the data were processed

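Biotin-labelled total RNA of 1 Hopx-/- and 1 Hopx-sufficient sample was hybridised to Affymetrix 3' arrays. The authors deposited log2-type values for 45101 probe sets, centred on the mean of the 2 arrays: the largest absolute row sum was 1e-06, which was checked on the table. Scanner software, summarisation, normalization and log base are not given in the sources used here. Base 2 was assumed; with natural logs every log2 difference would be larger by a factor of 1.44. The values hold no levels, and the number of arrays limits the precision.

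Differences were taken as Hopx-/- minus Hopx-sufficient and averaged over the probe sets of a gene, without centring (their median over probe sets was 0.0075). Symbols came from the platform annotation of 2016, updated by gene ID through the RefSeq table of GRCm38.p6 (34741 of 34945 probe sets with 1 symbol). A further 932 probe sets with several symbols, 3 of them with that of a member, 9160 with none and 64 controls were left out. Folds of 1.5 and 2, and a ratio of 0.8, are rules of size. No test was made, since each genotype has 1 array. Gene averaging was checked on simulated data. The members and lists were chosen with earlier results of these data known. All members are described, with the 3 most different genes of the other pathway lists and those at least 1.5-fold apart; any other gene was picked with its value in view. Alternatives were centring, the median probe set or the one furthest from 0, leaving out probe sets by suffix or by the finest value steps, natural logs, other folds, and members left out. Calculations ran in pandas 2.3.3 and numpy 2.4.6 under Python 3.11.15, and figures were drawn in matplotlib 3.10.9.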

Additional observations from a re-analysis of the deposited data

How the results depend on the processing

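The count of members at least 1.5-fold lower, 6 as reported, was 14 when each gene took its probe set furthest from 0 and 18 with natural logs, and it was 22 at a ratio of 0.8 and 0 at 2-fold. With centring, the median over probe sets or removal of the finest steps it was 7, 8 and 9. Shares over all genes were computed only as reported (1.253% at least 1.5-fold lower) and at the ratio of 0.8 (6.612%). Counts under the other settings, here and below, therefore have no such share beside them. Whether they rose more than over all genes was not tested. With natural logs the medians were -0.61 for all members, -0.80 for serine and one-carbon, -0.64 for pyrimidine and -0.62 for cell cycle genes. The 10 cell cycle genes at least 1.5-fold lower became 15 with natural logs, 13 with the probe set furthest from 0 and 8 without suffixes. In the other lists, natural logs gave the following numbers of genes at least 1.5-fold lower: 2 in folate handling, 1 in further methionine genes, 4 in deoxynucleotide supply, 5 in salvage and breakdown, 2 in Atf4 and its targets, 1 near Hopx, 1 among B cell and 1 among CD8 T and NK cell markers. The probe set furthest from 0 gave 3 in deoxynucleotide supply, 2 in salvage, 2 in Atf4 and its targets, 1 near Hopx and 1 among B cell markers. The median over probe sets gave 2 in Atf4 and its targets, removal of the finest steps 1 near Hopx, and removal of suffixes 0 in folate handling. The gene near Hopx was the member Ppat in each of these settings. It was counted in another list, of 17 measured genes around Hopx, not in the ordered neighbours described above. Some medians moved by over 1.5 times: without suffixes, Atf4 and its targets from -0.26 to -0.14, folate handling from -0.07 to -0.14, and pentose and ribose phosphate from 0.04 to 0.11; with the median over probe sets, deoxynucleotide supply from -0.29 to -0.19 and CD8 T and NK cells from -0.12 to -0.23; with the probe set furthest from 0, purine genes from -0.23 to -0.38 and salvage from -0.07 to -0.16. Aspartate and asparagine genes also moved so far, from -0.25 to -0.13 without suffixes. The list around Hopx went from 0.04 to 0.08 without suffixes and to 0.10 with the probe set furthest from 0. That probe set also moved further methionine genes from 0.06 to 0.10 and CD8 T and NK cells from -0.12 to -0.23. Methionine cycle genes moved from -0.29 to as low as -0.45 when 1 gene was left out at a time. The pentose and ribose phosphate median changed sign, to -0.013, with the median over probe sets. No member at least 1.5-fold apart changed sign; genes outside the members were not recomputed singly. Without probe sets with a suffix, 27 members remained measured, 25 of them lower, with a median of -0.37, and Asns differed by -0.18. Leaving out 1 member at a time kept the median between -0.43 and -0.42. No paired analysis was possible because there is 1 array of each kind, so none could be omitted either. Since signal over background is not in the values, dim probe sets cannot be set apart beyond those with the finest steps.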
